A study of Mus musculus with 10 samples.

Results

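The axon guidance ligand and receptor families were examined in 6 lists of genomic regions bound by HEB or by SMAD2/3 in mouse embryonic stem cells (ESCs) and in cells differentiated from them. Members were all genes named Sema, Plxn, Efna, Efnb, Epha, Ephb, Slit, Robo, Ntn or Unc5 with a number or a letter and number, netrin-G genes included and Slitrk genes left out. The rule used names and no measured value. It took in 68 of 21900 protein-coding genes of the RefSeq name table, namely 20 semaphorins, 9 plexins, 5 ephrin-A and 3 ephrin-B genes, 9 EphA and 5 EphB genes, 3 Slit, 4 Robo, 6 netrin and 4 Unc5 genes. Of these, 53 had a region in at least 1 list (77.9%, against 47.0% of all protein-coding genes), and the 6 lists held 560 regions listed for them among 78263 regions in all.

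The cells were CGR8, a feeder-free mouse ESC line. The 6 groups, with 1 ChIP library each, were Endoderm+SB HEB, Endoderm HEB, Endoderm SMAD2/3, ESC+SB HEB, ESC HEB and ESC SMAD2/3. Differentiation was in serum-free medium with 100 ng/ml Activin A added on day 2, and ChIP was done on day 4. SB431542 (SB), which blocks the type I receptor kinases of TGF-beta, activin and Nodal, was given at 10 µM for 24 hours to ESCs and, as the labels are read here, together with Activin A for the last 48 hours of differentiation. ESCs without SB grew in serum with LIF and had no Activin A added. HEB, an E protein of the basic helix-loop-helix class, was precipitated in all 4 conditions, and SMAD2/3, the transcription factors that carry activin and Nodal signals, in the 2 conditions without SB. With 1 library a group there was no replicate spread, no test and no p-value, and each difference compares 2 libraries. The lists give no sequencing depth, and the median member region held 181 to 222 ChIP and 16.0 to 32.0 input tags by list. The intervals given are exact Clopper-Pearson 95% intervals, which cover counting error only, and regions of 1 gene are not independent of each other.

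The 4 ligand-receptor systems are best known from the growing axon. Semaphorins signal through plexins, the secreted class often with a neuropilin as coreceptor. Ephrins bind Eph receptor tyrosine kinases on a touching cell, Slits bind Robo receptors, and netrins attract axons through DCC or repel them through Unc5 receptors. The same proteins steer cell sorting, tissue boundaries and vessel growth in the early embryo.

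Among the 68 genes, 7 had a HEB region within 1 kb of the 5′ end (called promoter-proximal below) in each of the 4 HEB lists, namely Sema4c, Sema5b, Sema6a, Plxnb2, Epha10, Robo1 and Unc5b. This was 10.3% of the members, against 4.55% of all protein-coding genes. The 250 bases before the gene start are shown for the 4 of them with a single entry in the RefSeq promoter table of GRCm38.p6, because HEB was listed near these gene starts in both states with and without SB. The HEB regions covered the listed 5′ end at Sema5b, Robo1 and Unc5b, and those of Epha10 lay inside the gene, 533 to 603 bp from the 5′ end, while the bases shown lie before the gene start. Capitals mark the E-box letters CAGCTG and CAGGTG, to which E proteins are known to bind, and the SMAD-binding letters CAGAC, each searched on both strands, so that CACCTG and GTCTG are their reverse complements. None of these motifs overlapped another in the windows shown.
Sema5b, chr16:35541112-35541361, plus strand: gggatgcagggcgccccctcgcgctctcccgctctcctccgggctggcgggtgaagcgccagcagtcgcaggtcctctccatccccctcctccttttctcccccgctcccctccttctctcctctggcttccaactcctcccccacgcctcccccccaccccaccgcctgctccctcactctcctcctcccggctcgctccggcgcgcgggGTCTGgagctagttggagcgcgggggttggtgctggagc
Epha10, chr4:124881535-124881784, plus strand: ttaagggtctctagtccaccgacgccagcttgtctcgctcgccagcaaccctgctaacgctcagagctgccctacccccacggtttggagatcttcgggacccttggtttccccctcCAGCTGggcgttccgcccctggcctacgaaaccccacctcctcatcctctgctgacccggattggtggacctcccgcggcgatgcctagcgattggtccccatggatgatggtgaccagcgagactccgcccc
Robo1, chr16:72662899-72663148, plus strand: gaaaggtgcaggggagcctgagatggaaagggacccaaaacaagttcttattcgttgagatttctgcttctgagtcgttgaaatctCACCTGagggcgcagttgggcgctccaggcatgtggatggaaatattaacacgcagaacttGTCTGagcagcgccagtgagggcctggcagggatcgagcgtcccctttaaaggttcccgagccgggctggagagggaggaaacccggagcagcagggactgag
Unc5b, chr10:60831582-60831831, minus strand: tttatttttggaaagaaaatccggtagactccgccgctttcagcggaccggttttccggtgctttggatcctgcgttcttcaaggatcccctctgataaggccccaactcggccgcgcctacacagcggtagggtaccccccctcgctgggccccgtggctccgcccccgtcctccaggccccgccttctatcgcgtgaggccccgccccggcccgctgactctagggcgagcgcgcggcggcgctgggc
Epha10 held 1 CAGCTG, Robo1 held 1 CAGGTG and 1 CAGAC, Sema5b held 1 CAGAC, and Unc5b held none of the 3. CAGCTG was present in 16.0% of 75 promoter entries of 59 members, CAGGTG in 13.3% and CAGAC in 52.0%. Over all 32851 promoter entries of the same length the shares were 13.0% for CAGCTG, 17.2% for CAGGTG and 42.2% for CAGAC. The region lists use mm9, another build, so no region edge was placed on these letters, and a match is a description of the sequence alone.

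Members were listed in 36 genes and 86 regions of Endoderm+SB HEB, 42 genes and 160 regions of Endoderm HEB, 36 genes and 80 regions of Endoderm SMAD2/3, 38 genes and 101 regions of ESC+SB HEB, 35 genes and 112 regions of ESC HEB, and 12 genes and 21 regions of ESC SMAD2/3. As shares of the 68 genes these were 52.9% (95% interval 40.4 to 65.2) in Endoderm+SB HEB, against 23.0% of all protein-coding genes, and 61.8% (49.2 to 73.3) in Endoderm HEB, against 24.9%. They were 52.9% (40.4 to 65.2) against 23.1% in Endoderm SMAD2/3, and 55.9% (43.3 to 67.9) against 29.9% in ESC+SB HEB. They were 51.5% (39.0 to 63.8) against 24.1% in ESC HEB and 17.6% (9.47 to 28.8) against 7.32% in ESC SMAD2/3. In each list the members' interval lay above the share of all genes. The order between lists moved with list length, which ran from 4111 to 18981 regions. With each list limited to its 4111 highest regions, Endoderm+SB HEB held 26 members, Endoderm HEB 23, Endoderm SMAD2/3 18, ESC+SB HEB 17, ESC HEB 16 and ESC SMAD2/3 12. These were 38.2% of the members against 7.92% of all genes in Endoderm+SB HEB, 33.8% against 6.28% in Endoderm HEB and 26.5% against 8.33% in Endoderm SMAD2/3. They were 25.0% against 7.27% in ESC+SB HEB, 23.5% against 6.56% in ESC HEB and 17.6% against 7.32% in ESC SMAD2/3.

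**Figure D1:**
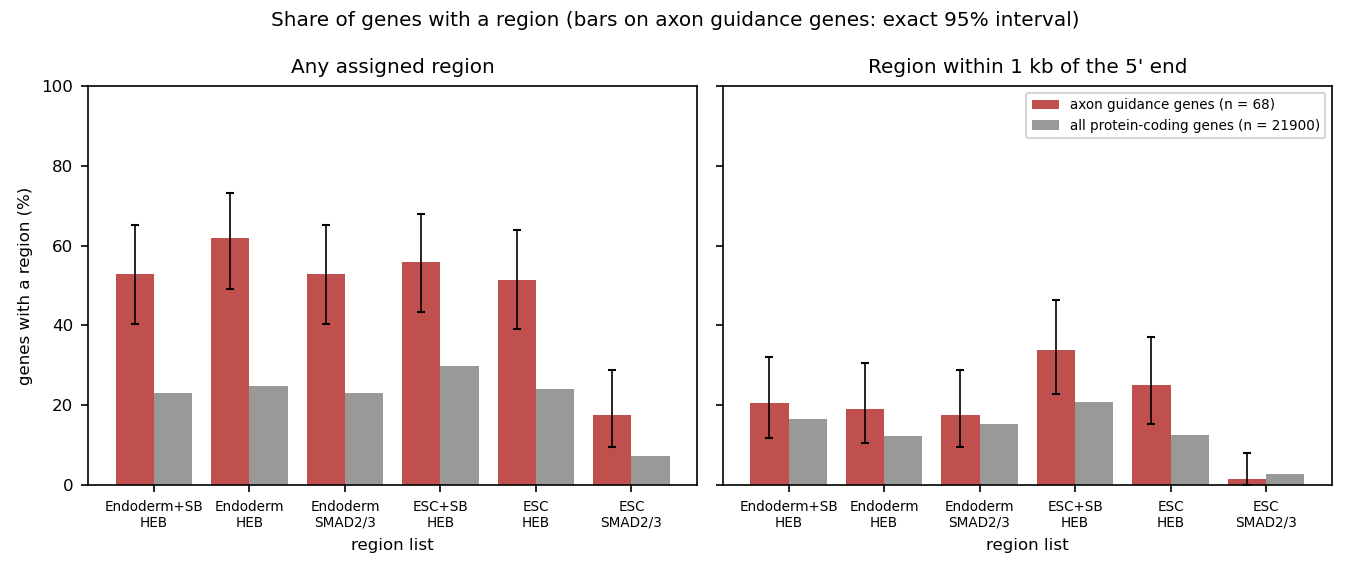
Share of genes (%) with any listed region (left) and with a region within 1 kb of the 5′ end (right) in each of the 6 lists, for the 68 axon guidance genes (red, with exact 95% intervals) and all 21900 protein-coding genes (grey). The red bars stand above the grey ones by more than the interval on the left in every list, while on the right the intervals of 4 lists reach the grey bars.

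At the promoters the members stood less far above other genes. Promoter-proximal regions were found at 14 members in Endoderm+SB HEB (20.6%, interval 11.7 to 32.1, against 16.5% of all genes), 13 in Endoderm HEB (19.1%, 10.6 to 30.5, against 12.3%) and 12 in Endoderm SMAD2/3 (17.6%, 9.47 to 28.8, against 15.4%). In ESCs they were at 23 members with SB (33.8%, 22.8 to 46.3, against 20.7%), 17 in ESC HEB (25.0%, 15.3 to 37.0, against 12.6%) and 1 in ESC SMAD2/3 (1.47%, 0.0372 to 7.92, against 2.76%). The intervals of ESC+SB HEB and ESC HEB lay above the share of all genes, and the other 4 included it. The single ESC SMAD2/3 promoter was that of Sema6c, a transmembrane semaphorin of the class that binds A-type plexins, with its region 47 bp from the 5′ end.

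Of the 68 genes, 15 had no region in any list, namely the semaphorins Sema3g, Sema4f and Sema4g, the plexins Plxna3, Plxnb1 and Plxnb3, the ephrins Efna4 and Efnb1, the Eph receptors Epha5 and Ephb6, the netrins Ntn4 and Ntn5, and Robo4, Unc5c and Unc5d. A region farther than 1 kb from a gene is listed for no gene, so binding at a distant element of these genes would not be counted. A region in all 6 lists was found at 9 genes (13.2%, against 2.88% of all protein-coding genes), which were Sema3e, Sema5b, Slit3, Plxnb2, Epha4, Ephb2, Ephb4, Unc5a and Unc5b, so that the receptors Unc5a and Unc5b were listed for both factors in both states while Unc5c and Unc5d had no region.

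**Figure D2:**
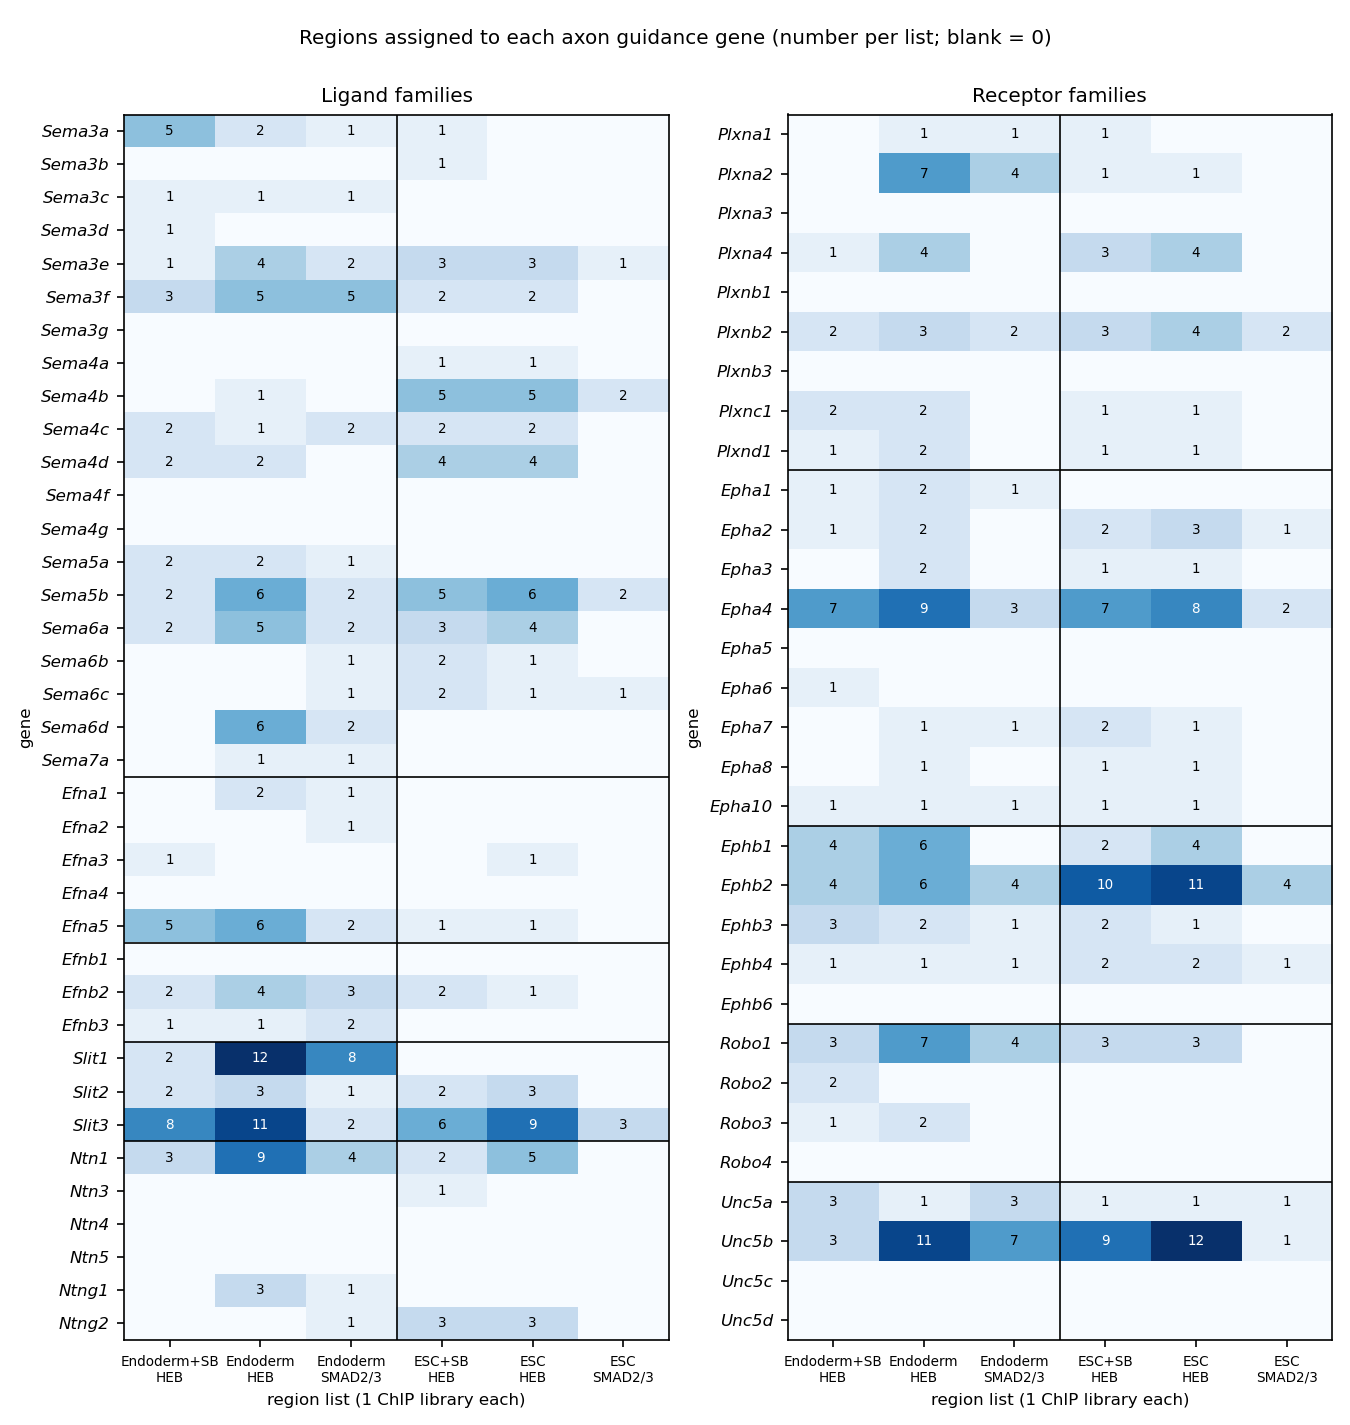
Number of regions listed for each of the 68 genes in each list (1 ChIP library a column, ligand families left, receptor families right, darker for more regions, blank for 0). Slit1 has 12, 8 and 2 regions in the 3 lists of differentiating cells and none in the ESC lists, and Epha4, Ephb2 and Unc5b have regions in every column.

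Slits are secreted proteins that repel axons through Robo receptors, and they carried the highest HEB region of all members. Slit3 had 8 regions in Endoderm+SB HEB, 11 in Endoderm HEB, 2 in Endoderm SMAD2/3, 6 in ESC+SB HEB, 9 in ESC HEB and 3 in ESC SMAD2/3. Its Endoderm HEB region at chr11:35139682-35140468 (mm9 in all coordinates of regions), 204724 bp from the 5′ end, reached a peak height of 450, from 2044 tags in the ChIP against 21 in the input (enrichment 97.3). Height is the authors' signal at the peak, and enrichment is their ratio of tags in the ChIP to tags in the input. Overlapping regions had a height of 52.7 in Endoderm+SB HEB and 51.6 in Endoderm SMAD2/3, and no ESC list held one. A further Slit3 region, chr11:35197390-35198365, had a height of 270 in Endoderm HEB and 261 in Endoderm SMAD2/3, with overlapping regions of 45.0 in ESC HEB and 26.3 in ESC SMAD2/3 and none with SB in either state. The highest Slit3 region of ESC HEB lay elsewhere (chr11:35423630-35424046, height 140) and was also listed in Endoderm HEB (127) and ESC+SB HEB (64.9). Slit3 was thus listed in both states, but 2 of its 11 Endoderm HEB regions overlapped an ESC HEB region.

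Slit1 had 2 regions in Endoderm+SB HEB, 12 in Endoderm HEB and 8 in Endoderm SMAD2/3, and none in the 3 ESC lists. The 12 HEB regions stretched over chr19:41723852-41813859, between 4487 and 94084 bp from the 5′ end, with heights of 26.6 to 120. Of the 8 SMAD2/3 regions, 7 overlapped one of them, and the highest (105) was at chr19:41729382-41729909, where HEB reached 52.1. Of the 2 regions with SB, the one at chr19:41731895-41732355 (height 67.1) overlapped an Endoderm HEB region of 71.8, and the other (83.9) overlapped no region of another list. Slit2 had 2 regions in Endoderm+SB HEB (highest 99.1), 3 in Endoderm HEB (108), 1 in Endoderm SMAD2/3 (50.5), 2 in ESC+SB HEB (43.5), 3 in ESC HEB (38.6) and none in ESC SMAD2/3. No Slit2 region of differentiating cells overlapped one of ESCs, and it was the 1 Slit gene with a promoter-proximal region, in the ESC HEB lists with and without SB.

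Among the Robo receptor genes, Robo1 alone was listed in ESCs. It had 3 regions in Endoderm+SB HEB, 7 in Endoderm HEB, 4 in Endoderm SMAD2/3, 3 in ESC+SB HEB, 3 in ESC HEB and none in ESC SMAD2/3. The region over the Robo1 5′ end had heights of 29.1 in Endoderm+SB HEB, 29.0 in Endoderm HEB, 46.6 in ESC+SB HEB and 31.6 in ESC HEB. Its highest regions were those of Endoderm HEB at chr16:72677627-72678254 (135, with SMAD2/3 at 50.4) and chr16:72680938-72681658 (110, with SMAD2/3 at 57.6 and Endoderm+SB HEB at 29.4). Robo3, a receptor of commissural axons, had 1 region in Endoderm+SB HEB (28.3) and 2 in Endoderm HEB (26.3 and 74.7), 3 promoter-proximal regions in all. Robo2 had 2 regions, both in Endoderm+SB HEB (28.3 and 38.3), at 434515 and 243951 bp from its 5′ end.

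Ntn1 encodes netrin-1, the secreted ligand of DCC and Unc5. It had 3 regions in Endoderm+SB HEB, 9 in Endoderm HEB, 4 in Endoderm SMAD2/3, 2 in ESC+SB HEB, 5 in ESC HEB and none in ESC SMAD2/3. At chr11:68037103-68037671 the heights were 49.8 in Endoderm+SB HEB, 256 in Endoderm HEB and 296 in Endoderm SMAD2/3, the last being the highest SMAD2/3 region of any member. At chr11:68098913-68099962 they were 298 in Endoderm HEB and 128 in Endoderm SMAD2/3, with no region in Endoderm+SB HEB. Neither place had a region in ESCs, where the 5 ESC HEB regions had heights of 25.8 to 45.0. All 4 Endoderm SMAD2/3 regions of Ntn1 overlapped a HEB region. Ntng1 and Ntng2, membrane-anchored netrin-G genes, differed in state. Ntng1 had 3 regions in Endoderm HEB (26.9 to 79.4) and 1 in Endoderm SMAD2/3 (33.7), and Ntng2 had 1 in Endoderm SMAD2/3 (28.0), 3 in ESC+SB HEB (29.2 to 87.2) and 3 in ESC HEB (28.6 to 82.0). Ntn3 had 1 region, in ESC+SB HEB (30.7), which was also listed for Tbc1d24.

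Unc5b, a netrin receptor that also acts in vessels, had 3 regions in Endoderm+SB HEB, 11 in Endoderm HEB, 7 in Endoderm SMAD2/3, 9 in ESC+SB HEB, 12 in ESC HEB and 1 in ESC SMAD2/3. Its highest region was Endoderm SMAD2/3 at chr10:60276243-60278369, with a height of 265 and 2224 ChIP against 78 input tags. The HEB regions there reached 49.9 in Endoderm+SB HEB, 132 in Endoderm HEB, 102 in ESC+SB HEB and 89.7 in ESC HEB. At chr10:60273729-60275534, a place covered in all 6 lists, the highest values were 29.1 in Endoderm+SB HEB, 84.8 in Endoderm HEB, 68.7 in Endoderm SMAD2/3, 110 in ESC+SB HEB, 88.5 in ESC HEB and 28.8 in ESC SMAD2/3. Unc5a had fewer regions, 3 in Endoderm+SB HEB, 1 in Endoderm HEB, 3 in Endoderm SMAD2/3 and 1 in each ESC list. One narrow place in Unc5a, chr13:55072271-55072515, was in all 6 lists, with heights of 53.2 in Endoderm+SB HEB, 71.9 in Endoderm HEB, 47.6 in Endoderm SMAD2/3, 108 in ESC+SB HEB, 95.8 in ESC HEB and 25.4 in ESC SMAD2/3.

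Among the 20 semaphorins 17 had a region, and 6 of the 7 secreted Sema3 genes were among them. Sema3a, a repellent that signals through neuropilin-1 and A-type plexins, had 5 regions in Endoderm+SB HEB, 2 in Endoderm HEB, 1 in Endoderm SMAD2/3, 1 in ESC+SB HEB and none in ESC HEB or ESC SMAD2/3. Its region at chr5:13529055-13529836 had a height of 186 in Endoderm+SB HEB (1406 ChIP and 26 input tags), 64.4 in Endoderm HEB and 42.4 in Endoderm SMAD2/3. Sema3a was 1 of 8 members with more HEB regions with SB than without in differentiating cells, and its region over the 5′ end was listed in Endoderm+SB HEB (57.9) and ESC+SB HEB (29.9) and in no list without SB. Sema3e, which binds plexin D1 without a neuropilin, had 1, 4 and 2 regions in Endoderm+SB HEB, Endoderm HEB and Endoderm SMAD2/3, and 3, 3 and 1 in ESC+SB HEB, ESC HEB and ESC SMAD2/3. At chr5:14031477-14032707 its heights were 118 in Endoderm HEB, 161 in Endoderm SMAD2/3, 37.0 in ESC+SB HEB, 45.6 in ESC HEB and 31.1 in ESC SMAD2/3, with no region in Endoderm+SB HEB. At chr5:14039076-14039559 they were 27.8 in Endoderm+SB HEB, 159 in Endoderm HEB, 47.9 in Endoderm SMAD2/3, 48.0 in ESC+SB HEB and 69.3 in ESC HEB, with none in ESC SMAD2/3. Sema3f, a ligand of neuropilin-2, had 5 regions each in Endoderm HEB and Endoderm SMAD2/3, 3 in Endoderm+SB HEB, 2 each in ESC+SB HEB and ESC HEB, and none in ESC SMAD2/3. Its region at chr9:107600070-107601374 was listed in the 3 lists of differentiating cells (65.4 in Endoderm+SB HEB, 113 in Endoderm HEB, 43.7 in Endoderm SMAD2/3) and in no ESC list. Sema3c and Sema3d were listed in differentiating cells alone and Sema3b in ESC+SB HEB alone, with 1 region in each list that held them and heights of 26.0 to 49.6.

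The transmembrane semaphorins held the highest promoter-proximal regions of the members, and by peak height these were highest in ESCs. The region over the 5′ end of Sema4c, a ligand of plexin B2, had a height of 38.0 in Endoderm+SB HEB, 119 in Endoderm HEB, 35.7 in Endoderm SMAD2/3, 191 in ESC+SB HEB and 139 in ESC HEB. The region over the 5′ end of Sema6a, a ligand of A-type plexins, had 59.4 in Endoderm+SB HEB, 106 in Endoderm HEB, 59.9 in Endoderm SMAD2/3, 175 in ESC+SB HEB and 137 in ESC HEB. The region over the 5′ end of Sema5b, a semaphorin with thrombospondin repeats, had 62.3, 71.2 and 50.4 in Endoderm+SB HEB, Endoderm HEB and Endoderm SMAD2/3, and 141 and 123 in ESC+SB HEB and ESC HEB. ESC SMAD2/3 had no region at any of these 5′ ends. In all 3 genes the Endoderm+SB HEB height was the lowest and the ESC+SB HEB height the highest of the 4 HEB lists. The median heights of regions listed for other genes had the same lowest and highest list. They were 33.1 in Endoderm+SB HEB, 37.6 in Endoderm HEB, 36.5 in ESC HEB and 38.6 in ESC+SB HEB. The highest tag enrichment of each of the 3 genes followed another order. It was taken over all regions of the gene and can come from a region other than that over the 5′ end. In Endoderm+SB HEB, Endoderm HEB, ESC+SB HEB and ESC HEB the highest enrichment of any Sema4c region was 9.05, 9.18, 8.62 and 10.9. For Sema6a it was 22.5, 18.3, 19.7 and 18.5, and for Sema5b 13.3, 28.8, 13.5 and 14.5.

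Sema4b and Sema6d had opposite patterns. Sema4b had 1 region in Endoderm HEB (27.6) and none in the other lists of differentiating cells, against 5 in ESC+SB HEB (41.0 to 65.5), 5 in ESC HEB (32.7 to 46.0) and 2 in ESC SMAD2/3 (33.8 and 36.6), and the Endoderm HEB region overlapped none of these. Sema6d had 6 regions in Endoderm HEB (27.7 to 194) and 2 in Endoderm SMAD2/3 (25.0 and 25.2), and none with SB or in ESCs. Its highest region, chr2:124464579-124465999, held 2163 ChIP and 33 input tags, an enrichment of 65.5, and overlapped no region of another list. Sema6b had 1 region in Endoderm SMAD2/3 (39.2, over the 5′ end), 2 in ESC+SB HEB (29.5 and 47.0) and 1 in ESC HEB (42.6). Sema6c had 1 in Endoderm SMAD2/3 (28.7), 2 in ESC+SB HEB (28.3 and 84.8), 1 in ESC HEB (88.6) and 1 in ESC SMAD2/3 (27.7). Neither had a HEB region in differentiating cells, with or without SB. Sema4d, a ligand of plexin B1, had HEB regions alone, 2 in Endoderm+SB HEB (33.8 and 34.0), 2 in Endoderm HEB (27.9 and 46.0), 4 in ESC+SB HEB (30.7 to 63.9) and 4 in ESC HEB (27.3 to 92.7). Sema4a, Sema5a and Sema7a had 9 regions together, with heights of 30.4 to 49.0.

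Plexins are the semaphorin receptors, and 6 of 9 were listed. Plxnb2, the receptor of Sema4c, had 2, 3 and 2 regions in Endoderm+SB HEB, Endoderm HEB and Endoderm SMAD2/3, and 3, 4 and 2 in ESC+SB HEB, ESC HEB and ESC SMAD2/3. The HEB heights were 26.2 and 27.8 in Endoderm+SB HEB and 25.7 to 28.3 in Endoderm HEB, against 65.3 to 83.8 in ESC+SB HEB and 31.9 to 77.0 in ESC HEB, so that the HEB heights of the 2 states did not overlap. Those of SMAD2/3 did, with 27.5 and 36.8 in Endoderm SMAD2/3 and 29.4 and 44.3 in ESC SMAD2/3. The Plxnb2 region promoter-proximal in Endoderm+SB HEB lay at chr15:89010865-89011713, was also listed for Fam116b and overlapped no region of another list. Plxna2, a receptor of Sema6a, had 7 regions in Endoderm HEB (40.5 to 75.4) and 4 in Endoderm SMAD2/3 (26.5 to 35.1), none in Endoderm+SB HEB, and 1 each in ESC+SB HEB (32.8) and ESC HEB (39.9). The 7 Endoderm HEB regions of Plxna2 overlapped no ESC region, and 3 of them overlapped SMAD2/3. Plxna4, Plxnc1 and Plxnd1 had HEB in both states with and without SB and no SMAD2/3. Plxna1 had 1 region each in Endoderm HEB (37.5), Endoderm SMAD2/3 (33.4) and ESC+SB HEB (28.8), all at the same place.

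Ephrins are membrane-bound ligands, those of class A held by a lipid anchor and those of class B by a membrane span. Efna5 had 5 regions in Endoderm+SB HEB (35.8 to 174), 6 in Endoderm HEB (25.6 to 52.4), 2 in Endoderm SMAD2/3 (33.6 and 40.1), 1 in ESC+SB HEB (32.5) and 1 in ESC HEB (38.9). The ESC regions lay over the Efna5 5′ end, and those of differentiating cells between 8857 and 225234 bp away. The highest, chr17:63202348-63203508 with 1071 ChIP and 40 input tags, was listed with SB alone. Efna1 had 2 regions in Endoderm HEB (36.4 and 57.9) and 1 in Endoderm SMAD2/3 (102), the highest promoter-proximal SMAD2/3 region of a member, and none with SB or in ESCs. Efnb2, the ligand of EphB4, had 2 regions in Endoderm+SB HEB (43.9 and 45.4), 4 in Endoderm HEB (27.6 to 113), 3 in Endoderm SMAD2/3 (27.2 to 78.6), 2 in ESC+SB HEB (36.2 and 38.5) and 1 in ESC HEB (33.2). All 3 Efnb2 SMAD2/3 regions overlapped HEB. Efnb3 was listed in the 3 lists of differentiating cells alone, and Efna2 and Efna3 in 1 and 2 lists with heights of 26.7 to 27.8.

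Among the Eph receptors, the receptor tyrosine kinases of the ephrins, 12 of 14 were listed. Epha4, which binds ephrins of both classes, had 7 regions in Endoderm+SB HEB, 9 in Endoderm HEB, 3 in Endoderm SMAD2/3, 7 in ESC+SB HEB, 8 in ESC HEB and 2 in ESC SMAD2/3. Its highest HEB regions lay at different places in differentiating cells and ESCs. In differentiating cells it was chr1:77436870-77437615, 74048 bp from the 5′ end, with 226 in Endoderm+SB HEB, 93.8 in Endoderm HEB and 38.0 in Endoderm SMAD2/3, and none in ESCs. In ESCs it was chr1:77453176-77453837, 57826 bp from the 5′ end, with 155 in ESC+SB HEB, 262 in ESC HEB and 36.4 in ESC SMAD2/3, and none in differentiating cells. Epha2 had 1 region in Endoderm+SB HEB (28.6), 2 in Endoderm HEB (29.6 and 37.4), none in Endoderm SMAD2/3, 2 in ESC+SB HEB (36.2 and 38.6), 3 in ESC HEB (27.5 to 40.0) and 1 in ESC SMAD2/3 (29.2). No Epha2 region was shared between differentiating cells and ESCs. Epha10, a receptor without kinase activity, had 1 region in each list but ESC SMAD2/3, all at the same place 533 to 619 bp from the 5′ end, with heights of 42.1 in Endoderm+SB HEB, 48.7 in Endoderm HEB, 27.1 in Endoderm SMAD2/3, 57.2 in ESC+SB HEB and 49.6 in ESC HEB. Epha3 had 2 regions in Endoderm HEB (33.2 and 112) and 1 each in ESC+SB HEB (32.6) and ESC HEB (27.2), and Epha1 had 1 in Endoderm+SB HEB (27.7), 2 in Endoderm HEB (28.6 and 67.0) and 1 in Endoderm SMAD2/3 (44.2). Epha6, Epha7 and Epha8 had heights of 28.9 to 43.8. Epha6 was listed in Endoderm+SB HEB alone, 636099 bp from its 5′ end.

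Ephb2 had 4 regions in Endoderm+SB HEB, 6 in Endoderm HEB, 4 in Endoderm SMAD2/3, 10 in ESC+SB HEB, 11 in ESC HEB and 4 in ESC SMAD2/3, the largest ESC SMAD2/3 number of a member. Its place chr4:136306367-136307634 was in all 6 lists, with 95.3 in Endoderm+SB HEB, 135 in Endoderm HEB, 43.2 in Endoderm SMAD2/3, 101 in ESC+SB HEB, 118 in ESC HEB and 29.8 in ESC SMAD2/3. Besides the places in Unc5a and Unc5b this was the third of 3 places in all 6 lists (1.01% of the 297 places of members, against 1.50% of the places over all assigned regions). The highest ESC SMAD2/3 region of Ephb2 (chr4:136286331-136286760, 70.5) was shared with ESC+SB HEB (68.6) and ESC HEB (80.9) and with no list of differentiating cells. The highest Endoderm HEB region, chr4:136385090-136386229 (166), lay 5621 bp from the 5′ end and overlapped weaker regions in Endoderm SMAD2/3 (26.0), ESC+SB HEB (29.7) and ESC HEB (40.9). Ephb4, the receptor of ephrin-B2, had 1 region in each list of differentiating cells, with heights of 34.3 in Endoderm+SB HEB, 25.8 in Endoderm HEB and 29.8 in Endoderm SMAD2/3. It had 2 in ESC+SB HEB (58.4 and 76.9), 2 in ESC HEB (34.2 and 65.8) and 1 in ESC SMAD2/3 (36.4). Ephb3 had 3 in Endoderm+SB HEB (25.8 to 70.9), 2 in Endoderm HEB (28.5 and 30.7), 1 in Endoderm SMAD2/3 (33.5), 2 in ESC+SB HEB (32.0 and 65.3) and 1 in ESC HEB (38.7). Ephb1 had HEB in both states with and without SB, 2 to 6 regions a list, and no SMAD2/3.

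Regions of these genes lay far from the gene start. The median distance from the 5′ end was 20.5 kb for members against 0.339 kb for other genes in Endoderm+SB HEB, 32.7 against 13.1 kb in Endoderm HEB and 17.4 against 1.03 kb in Endoderm SMAD2/3. In ESCs it was 16.2 against 1.92 kb in ESC+SB HEB, 28.5 against 7.66 kb in ESC HEB and 44.0 against 10.9 kb in ESC SMAD2/3. Promoter-proximal regions made up 18.6% of member regions in Endoderm+SB HEB (interval 11.0 to 28.4), against 55.5% of the regions listed for other genes. The shares were 9.38% (5.34 to 15.0) against 28.9% in Endoderm HEB, and 17.5% (9.91 to 27.6) against 49.8% in Endoderm SMAD2/3. They were 24.8% (16.7 to 34.3) against 46.4% in ESC+SB HEB, 18.8% (12.0 to 27.2) against 32.2% in ESC HEB, and 4.76% (0.120 to 23.8) against 29.5% in ESC SMAD2/3. In each list the members' interval ended below the share of other genes. A listed member had 2.39, 3.81 and 2.22 regions in Endoderm+SB HEB, Endoderm HEB and Endoderm SMAD2/3, against 1.25, 1.83 and 1.33 for other genes. The numbers were 2.66, 3.20 and 1.75 in ESC+SB HEB, ESC HEB and ESC SMAD2/3, against 1.57, 1.79 and 1.33. A long gene offers more room for regions, and the part of gene length in these shares and numbers was not tested.

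**Figure D3:**
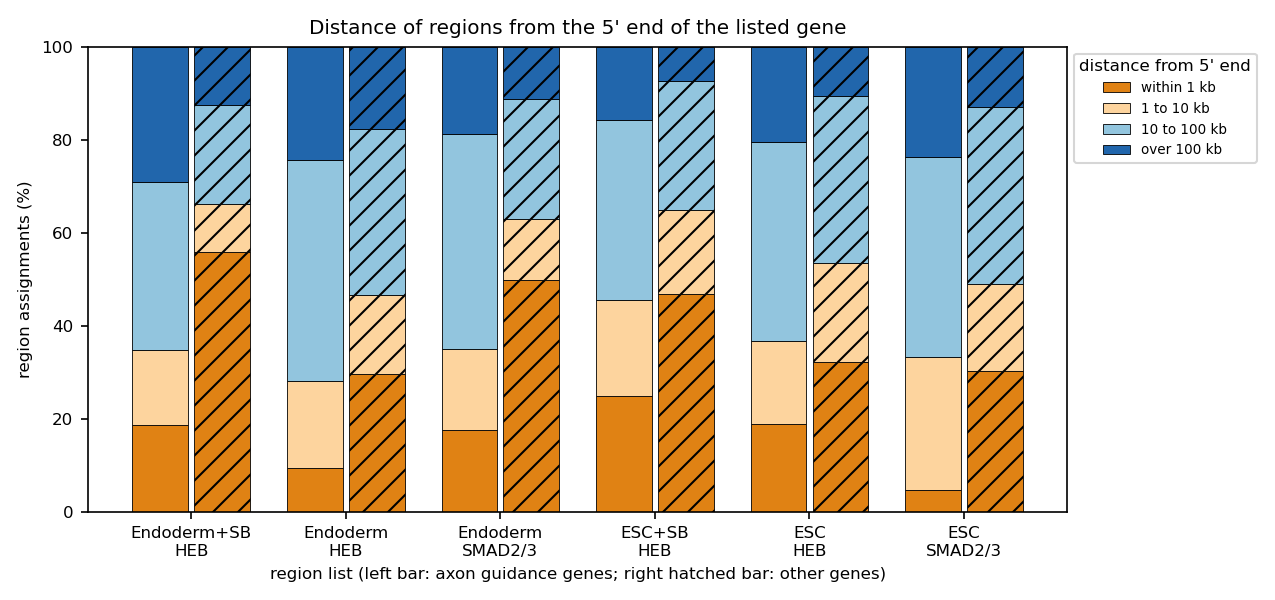
Distance from the 5′ end of the listed gene, as a share of region assignments (%) in 4 distance classes, with axon guidance genes (plain bars) left of other genes (hatched bars) in each list. Regions within 1 kb of the 5′ end make up 4.76% to 24.8% of the plain bars, and the class from 10 to 100 kb is the largest in each of them.

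The median height of member regions was above that of regions listed for other genes in each list, and beyond its interval in 2 of them. The median height was 38.9 against 33.1 in Endoderm+SB HEB, 42.2 against 37.6 in Endoderm HEB, 35.7 against 33.5 in Endoderm SMAD2/3, 43.5 against 38.6 in ESC+SB HEB, 38.8 against 36.5 in ESC HEB and 33.8 against 32.8 in ESC SMAD2/3. The 95% interval of the members' median ran from 34.3 to 45.2 in Endoderm+SB HEB and from 39.2 to 46.5 in Endoderm HEB, above the medians of other genes. In the other 4 lists the interval included the median of other genes. Members had a smaller promoter-proximal share, and its part in these medians was not tested. Other Endoderm HEB regions had medians of 33.7 (with SMAD2/3) and 31.4 (without) at promoters, and 56.6 and 36.6 away from them. Endoderm HEB member regions had 48.7 and 29.1 at promoters, and 67.0 and 38.4 away from them. Among member regions the promoter-proximal ones had lower tag enrichment than the others, with medians of 6.83 against 11.0 in Endoderm+SB HEB, 8.65 against 13.0 in Endoderm HEB, 6.84 against 10.1 in Endoderm SMAD2/3, 6.01 against 7.12 in ESC+SB HEB and 7.15 against 8.62 in ESC HEB.

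**Figure D4:**
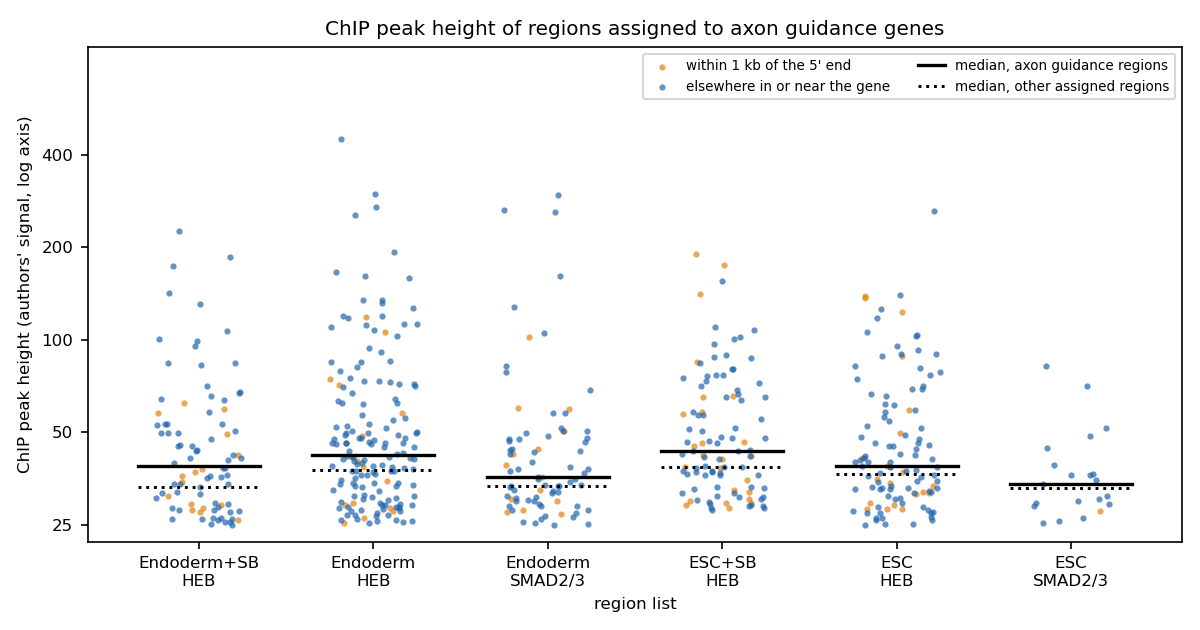
ChIP peak height (the authors' signal, log axis) of each axon guidance region in each list, promoter-proximal regions in orange and others in blue, with the median of these regions (solid line) and of regions listed for other genes (dotted line). Slit3 at 450 is the highest point, and of the 4 highest ESC+SB HEB points 3, at 141, 175 and 191, are promoter-proximal.

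The comparison of factors asked whether HEB and SMAD2/3 were listed at the same members. In endoderm 32 members had both, 10 had HEB alone and 4 had SMAD2/3 alone (Efna2, Ntng2, Sema6b and Sema6c). Thus 76.2% of the HEB members also had SMAD2/3, against 60.4% over all genes, and 88.9% of the SMAD2/3 members had HEB, against 65.0%. A listed member had more regions than other genes (3.81 against 1.83 in Endoderm HEB, 2.22 against 1.33 in Endoderm SMAD2/3). The part of this in the shares of genes here and in the comparisons below was not tested. By region, 36.2% of the Endoderm HEB member regions (28.8 to 44.2) overlapped a SMAD2/3 region, against 38.1% of other assigned regions, and 71.2% of the SMAD2/3 member regions (60.0 to 80.8) overlapped HEB, against 55.8%. Away from promoters the last pair was 72.7% (60.4 to 83.0) against 65.9%. HEB regions that overlapped SMAD2/3 had a median height of 63.9, and the others 37.9. SMAD2/3 fell on HEB at 7 of 8 regions of Slit1, 4 of 4 of Ntn1, 3 of 4 of Plxna2 and 3 of 3 of Efnb2. The overlap was less complete at Sema3f, Robo1 and Unc5a, each with several SMAD2/3 regions that overlapped no Endoderm HEB region. The members with HEB alone were Epha2, Epha3, Epha8, Ephb1, Plxna4, Plxnc1, Plxnd1, Robo3, Sema4b and Sema4d. With lists of equal length the share of SMAD2/3 regions on HEB came to 51.5%.

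In ESCs 12 members had both factors, 23 had HEB alone and none SMAD2/3 alone. All 21 member regions of ESC SMAD2/3 overlapped an ESC HEB region (100%, interval 83.9 to 100), against 80.8% of other assigned regions. Away from promoters, where 20 of the 21 lay, it was 100% (83.2 to 100) against 84.2%, a share inside the members' interval. With lists of equal length the share of all member regions came to 66.7%. The 12 genes were Sema3e, Sema4b, Sema5b, Sema6c, Slit3, Plxnb2, Epha2, Epha4, Ephb2, Ephb4, Unc5a and Unc5b, 34.3% of the members with HEB, against 25.9% over all genes, and 100% of the members with SMAD2/3, against 85.4%. Of the ESC HEB member regions 18.8% (12.0 to 27.2) overlapped SMAD2/3, against 18.1% of other assigned regions, a share that came to 46.7% with lists of equal length. Those that overlapped had a median height of 66.8, and the others 36.2. The labels give 1 input library for each condition, so both factors of a state may have been compared with the same input.

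The comparison of states asked which members were listed in endoderm and which in ESCs. HEB was at 30 members in both states, at 12 in endoderm alone and at 5 in ESCs alone (Efna3, Ntng2, Sema4a, Sema6b and Sema6c). The 12 were Efna1, Efnb3, Epha1, Ntng1, Plxna1, Robo3, Sema3a, Sema3c, Sema5a, Sema6d, Sema7a and Slit1. Of the members with HEB in endoderm 71.4% also had it in ESCs, against 60.8% over all genes, and of those with HEB in ESCs 85.7% also had it in endoderm, against 62.7%. Among the 47 members with HEB in either state, 27 had more regions in endoderm (57.4%, 42.2 to 71.7, against 40.3% of all such genes) and 13 had fewer (27.7%, 15.6 to 42.6, against 38.5%). Slit1 had 12 more and Sema6d and Plxna2 6 more each, while Ephb2 had 5 fewer, Sema4b 4 fewer and Ntng2 3 fewer. The places were shared less than the genes. Of the Endoderm HEB member regions 24.4% (17.9 to 31.8) overlapped an ESC HEB region, against 32.9% of other assigned regions. Compared by location, the share was 20.0% (13.8 to 27.4) against 24.4% away from promoters and 66.7% (38.4 to 88.2) against 53.9% at promoters. Of the ESC HEB member regions 35.7% (26.9 to 45.3) overlapped an Endoderm HEB region, against 34.6%.

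SMAD2/3 was at 10 members in both states, at 26 in endoderm alone and at 2 in ESCs alone (Epha2 and Sema4b), which is 27.8% of the endoderm members, against 22.8% over all genes, and 83.3% of the ESC members, against 72.1%. Among the 38 members with SMAD2/3 in either state 30 had more regions in endoderm (78.9%, 62.7 to 90.4), near the 77.6% of all such genes, and 3 had fewer (7.89%, 1.66 to 21.4, against 10.5%). These were Sema4b, Slit3 and Epha2. Slit1, Unc5b and Sema3f had the largest excess, with 8, 6 and 5 more. Of the 72 Endoderm SMAD2/3 member regions with no ESC SMAD2/3 region, 18.1% (9.98 to 28.9) lay on an ESC HEB region and 69.4% (57.5 to 79.8) on an Endoderm HEB region, against 23.8% and 54.7% of other assigned regions of that kind. Away from promoters lay 58 of the 72, and 2886 of the 5772 others. Over all other Endoderm SMAD2/3 regions, 65.9% away from promoters and 45.5% at them overlapped Endoderm HEB. The part of location in these shares was not tested. Over all 6 lists 14 members were listed in differentiating cells and not in ESCs (20.6%, against 13.4% of all genes) and 3, Ntn3, Sema3b and Sema4a, in ESCs and not in differentiating cells (4.41%, against 8.28%). These shares count all genes, listed or not, and more members had a region in any list (77.9%, against 47.0%). Of the 53 listed members, 14 were in differentiating cells alone and 3 in ESCs alone. Of the 10293 listed protein-coding genes, 2940 and 1814 were. Counted by place, the 560 regions merged into 297 sites, of which 174 were listed in differentiating cells alone (58.6%, against 44.2% of the sites over all assigned regions), 75 in ESCs alone (25.3%, against 31.2%) and 48 in both (16.2%, against 24.7%). These differences were not tested, and sites at and away from promoters were not separated.

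The comparison of SB431542 asked whether HEB was still listed at the members when the receptor kinases were blocked. In differentiating cells 32 members had HEB with and without SB, 4 with SB alone (Efna3, Epha6, Robo2 and Sema3d) and 10 without SB alone (Efna1, Epha3, Epha7, Epha8, Ntng1, Plxna1, Plxna2, Sema4b, Sema6d and Sema7a). Of the members with HEB in Endoderm+SB 88.9% also had it in Endoderm HEB, against 61.7% over all genes, and the other way round it was 76.2%, against 57.2%. Among the 46 members in either list, 8 had more regions with SB (17.4%, 7.82 to 31.4, against 30.2% of all such genes) and 31 had fewer (67.4%, 52.0 to 80.5, against 45.8%). Slit1 had 10 fewer, Unc5b 8 fewer and Plxna2 7 fewer, while Sema3a had 3 more and Unc5a and Robo2 2 more each. The whole Endoderm+SB HEB list has 10147 regions and the Endoderm HEB list 18981. With lists of equal length the members had 46 regions with SB and 41 without, so the fall was not seen. A listed member had 3.81 regions in Endoderm HEB, against 1.83 for other genes, and the part of this in these shares was not tested. Of the Endoderm HEB member regions 23.8% (17.4 to 31.1) were also listed with SB, against 29.9% of other assigned regions. By location it was 20.7% (14.4 to 28.2) against 19.2% away from promoters and 53.3% (26.6 to 78.7) against 56.3% at promoters. Of the Endoderm+SB HEB member regions 45.3% (34.6 to 56.5) were listed without it, against 47.0%, a share that came to 28.3% with lists of equal length. The share of Endoderm HEB member regions also listed with SB was 43.1% (30.2 to 56.8) for the 58 member regions that overlapped Endoderm SMAD2/3 and 12.7% (6.96 to 20.8) for the 102 that did not, and the same order held for other assigned regions, at 49.6% and 17.7%. The 58 were also higher than the 102 (median height 63.9 and 37.9), and 9 of the 58 and 6 of the 102 were promoter-proximal. Member regions also listed with SB had a median height of 60.8, and the others 40.5. The parts of height and location in this split were not tested.

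In ESCs the lists with and without SB were closer. HEB was at 34 members in both, at Ntn3, Plxna1, Sema3a and Sema3b with SB alone and at Efna3 without SB alone. The 34 were 89.5% of the members with HEB with SB, against 70.5% over all genes, and 97.1% of those without SB, against 87.4%. Of the ESC+SB HEB member regions 83.2% (74.4 to 89.9) overlapped ESC HEB, against 70.8% of other assigned regions, and away from promoters the shares were 86.8% (77.1 to 93.5) and 83.4%. Of the ESC HEB member regions 75.9% (66.9 to 83.5) overlapped ESC+SB HEB, against 77.4%. Among the 39 members in either list 9 had more regions with SB (23.1%, 11.1 to 39.3, against 36.3%) and 13 fewer (33.3%, 19.1 to 50.2, against 21.0%). Slit3, Unc5b and Ntn1 had 3 fewer each, and the 9 with more, Efnb2, Epha7, Ephb3, Ntn3, Plxna1, Sema3a, Sema3b, Sema6b and Sema6c, had 1 more each. The ESC+SB HEB list starts at a height of 28.0 and the other lists at 25.0, so regions between these heights could not appear in it. With lists of equal length the members had 32 regions in ESC+SB HEB and 30 in ESC HEB.

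**Figure D5:**
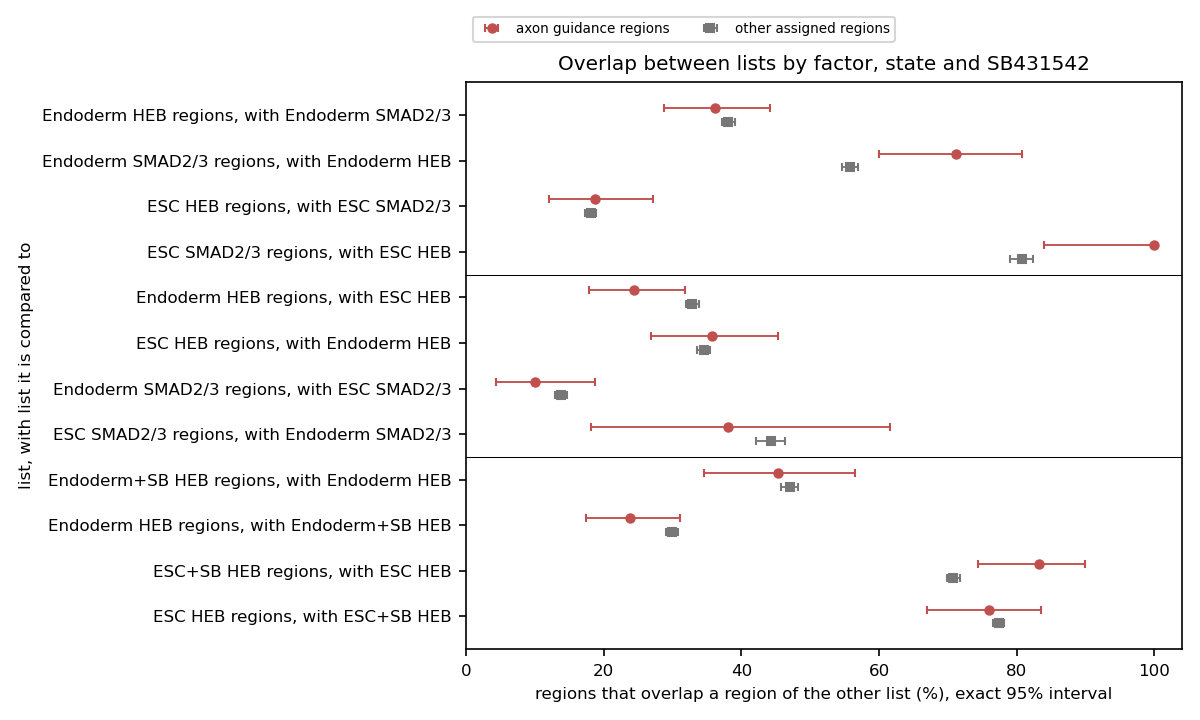
Share of regions of the first list (%) that overlap a region of the second by at least 1 bp, for axon guidance regions (red) and regions listed for other genes (grey), with exact 95% intervals, by factor (top), state (middle) and SB431542 (bottom). The shares between the HEB lists of differentiating cells with and without SB, at 45.3% and 23.8%, stand below those between the ESC HEB lists, at 83.2% and 75.9%.

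A comparison added after the data were seen set Endoderm+SB HEB against ESC+SB HEB, both with SB. The genes overlapped, with 26 members in both (72.2% of the Endoderm+SB HEB members, against 66.6% over all genes, and 68.4% of the ESC+SB HEB members, against 51.3%), and the places did so less. Of the Endoderm+SB HEB member regions 22.1% (13.9 to 32.3) overlapped ESC+SB HEB, against 45.4% of other assigned regions, a share that came to 13.0% with lists of equal length. Away from promoters it was 7 of 70 (10.0%, 4.12 to 19.5), against 27.4%, and at promoters 12 of 16 (75.0%, 47.6 to 92.7), against 59.8%. None of the 5 Efna5 and 8 Slit3 regions of Endoderm+SB HEB overlapped an ESC+SB HEB region, while the regions at the 5′ ends of Sema4c, Sema5b, Sema6a, Epha10, Robo1 and Unc5b did.

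Other genes of the pathway, a list of 40 coreceptors, further ligands and receptors and intracellular effectors, had a region at 19 genes (47.5%) in Endoderm+SB HEB, 24 (60.0%) in Endoderm HEB, 19 (47.5%) in Endoderm SMAD2/3, 23 (57.5%) in ESC+SB HEB, 21 (52.5%) in ESC HEB and 6 (15.0%) in ESC SMAD2/3. Each share lay within the interval of the 68 members for that list. The highest regions were those of Crmp1, a collapsin response mediator of semaphorin signals, with 28.8 in Endoderm+SB HEB, 423 in ESC+SB HEB, 520 in ESC HEB and 48.3 in ESC SMAD2/3, and of Srgap1, a GTPase-activating protein downstream of Robo, with 97.1 in Endoderm HEB, 81.2 in Endoderm SMAD2/3, 155 in ESC+SB HEB and 295 in ESC HEB. Dcc, the netrin receptor, had 1 region, in Endoderm HEB (36.6). Nrp1 had 1 region in each list of differentiating cells (27.7 to 63.5) and none in ESCs, and Nrp2 had 2, 1 and 1 in Endoderm+SB HEB, Endoderm HEB and Endoderm SMAD2/3, and 7, 7 and 1 in ESC+SB HEB, ESC HEB and ESC SMAD2/3.

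The labelled state was set beside 8 marker genes, at which the lists show binding and not RNA. The endoderm markers Cer1 (622 in Endoderm HEB, 176 in Endoderm SMAD2/3) and Mixl1 were listed in Endoderm HEB and Endoderm SMAD2/3 and in no other list, and the ESC markers Zfp42 and Tfcp2l1 in the 3 ESC lists and in no other. The ESC markers Nanog and Pou5f1 were listed in endoderm too. Nanog had a height of 75.2 in Endoderm HEB, 117 in Endoderm SMAD2/3, 136 in ESC+SB HEB, 129 in ESC HEB and 73.0 in ESC SMAD2/3, and Pou5f1 reached 96.5 in Endoderm HEB, 86.6 in Endoderm SMAD2/3, 110 in ESC+SB HEB, 115 in ESC HEB and 80.2 in ESC SMAD2/3. In Endoderm+SB HEB 1 of 8 was listed, the ESC marker Pou5f1 (31.1), and Cer1, Mixl1, Foxa2 and Sox17 had none, although the labels call these cells ESC-derived endoderm. Foxa2 and Sox17, also endoderm markers, were listed in Endoderm HEB and in both ESC HEB lists. In the Endoderm+SB HEB library SB and a difference in cell state cannot be told apart.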

How the data were processed

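Each ChIP library has 1 deposited list of regions, called against an input library. CASAVA 1.8.2 and the build mm9 are named in the submitters' processing notes, while aligner, peak caller, threshold and annotation of genes were not given in the sources used here. Per the file headers, each region has its position (whether counted from 0 or 1 is not given), peak heights (signal), ChIP and input tags (count), tag enrichment (ratio of tag counts, as the authors computed it), and the listed gene with its distance in bp. The signal, counts and ratios were used as deposited, and a region counted for each gene listed for it.

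Genes were matched by symbol to a RefSeq table of GRCm38.p6, used for names and promoter sequences. Of 10730 listed symbols 10305 matched a protein-coding gene, as did all 53 members with a region. Shares carry exact 95% Clopper-Pearson intervals, and medians an exact interval from order statistics. Overlap meant at least 1 bp. With 1 library a group, no test was run. The overlap step was tested on simulated lists, and the name rule on a few gene names. Python 3.11.15, pandas 2.3.3, NumPy 2.4.6, SciPy 1.17.1 and matplotlib 3.10.9 were used. Input libraries were used only as the input columns of the lists.

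Members and lists were chosen with earlier results of these data known. Members were named with values if they were among the 3 highest of a list, the 5 with most regions in the HEB lists or the 3 with most in the SMAD2/3 lists, had a region in all 6 lists, were among the 3 with the largest difference in region number in either direction of a comparison, or belonged to a family with 5 or fewer listed members in a list. Dcc, Nrp1, Epha10 and the remaining semaphorins and Eph receptors were named after their values were seen. Alternatives were lists of equal length, the upper 50% of each list by height, a common minimum height of 28.0, no netrin-G genes, regions over the 5′ end itself, overlap of at least 50% of the shorter region, ChIP tags over input tags plus 1, and the highest region of each gene.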

Additional observations from a re-analysis of the deposited data

Results flagged for a closer look

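Several differences between libraries pointed in opposite directions in 2 settings. Each compares single libraries, and the difference was not tested in any of them. The list lengths differ in each pair, and each value was set beside that from lists of equal length, from the upper 50% of each list by height and above a common minimum height, alternatives chosen after the data were seen. As deposited, all protein-coding genes and the regions listed for other genes showed the same opposite signs. The signs are thus not particular to these families. All genes with a HEB region numbered 5045 in Endoderm+SB HEB, 5444 in Endoderm HEB, 6543 in ESC+SB HEB and 5281 in ESC HEB. The median heights of other genes' regions were 33.1, 37.6, 38.6 and 36.5 in that order.

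With SB431542 the number of axon guidance genes with a HEB region changed by -6.00 in differentiating cells (36 genes in Endoderm+SB HEB, 42 in Endoderm HEB) and by 3.00 in ESCs (38 in ESC+SB HEB, 35 in ESC HEB). The opposite signs were lost at equal length, with 26 and 23 genes in differentiating cells and 17 and 16 in ESCs, and in the upper 50%, with 26 and 33 genes and 25 and 27. They stayed above the common minimum height (31 and 39, 38 and 33). Plxna2, Sema6d and Ntng1 are among the genes listed in Endoderm HEB and not in Endoderm+SB HEB.

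The median height of their regions changed with SB431542 by -3.30 in differentiating cells (38.9 and 42.2) and by 4.70 in ESCs (43.5 and 38.8). The ESC+SB HEB list starts at a height of 28.0 and the others at 25.0. Above the common minimum the medians were 45.1 and 46.1 in differentiating cells and 43.5 and 41.2 in ESCs, and in the upper 50% they were 51.6 and 57.9, and 64.4 and 58.5. The opposite signs were lost at equal length (53.2 and 108, 78.5 and 88.6) and with the highest region of each gene (48.3 and 71.5, 49.5 and 49.6). Median tag enrichment did not show them. It was lower with SB431542 in differentiating cells (10.6 and 12.1) and in ESCs (6.87 and 8.51).

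Between differentiating cells and ESCs the number of genes with a HEB region differed by -2.00 with SB431542 and by 7.00 without it. At equal length it was higher in differentiating cells in both cases (26 and 17 with SB431542, 23 and 16 without it), as in the upper 50% (26 and 25, 33 and 27), so the opposite signs were lost. Above the common minimum they stayed (31 and 38, 39 and 33). The number of regions differed by -15.0 with SB431542 (86 and 101) and by 48.0 without it (160 and 112), signs that were lost at equal length (46 and 32, 41 and 30) and stayed in the upper 50% and above the common minimum. Slit1 alone had 2 regions more with SB431542 and 12 more without it. The median height differed by -4.60 with SB431542 and 3.40 without it. Its opposite signs stayed at equal length (53.2 and 78.5, 108 and 88.6) and with the highest region of each gene, and were lost in the upper 50% (51.6 and 64.4, 57.9 and 58.5) and above the common minimum (45.1 and 43.5, 46.1 and 41.2). Median tag enrichment was higher in differentiating cells with SB431542 (10.6 and 6.87) and without it (12.1 and 8.51).

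Between endoderm and ESCs the number of genes with a promoter-proximal region differed by -4.00 for HEB (13 and 17) and by 11.0 for SMAD2/3 (12 and 1). The share of regions that were promoter-proximal differed by -9.42 percentage points for HEB and by 12.7 for SMAD2/3. Both kept their opposite signs in the 3 alternatives, with 4 and 5 HEB genes and 4 and 1 SMAD2/3 genes at equal length. The ESC SMAD2/3 values rest on 1 region of Sema6c. For regions of other genes the shares were 28.9% in Endoderm HEB, 32.2% in ESC HEB, 49.8% in Endoderm SMAD2/3 and 29.5% in ESC SMAD2/3. All protein-coding genes with a promoter-proximal region numbered 2703, 2754, 3373 and 604 in these lists.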

How the results depend on the processing

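Of 116 alternative values for 38 results, 92 stayed near the value reported (a count within 1.5 times of it, a share or median within its 95% interval) and 24 did not. With lists of equal length, genes with a region numbered 23 in Endoderm HEB, 18 in Endoderm SMAD2/3, 17 in ESC+SB HEB and 16 in ESC HEB. With equal length the overlapping share was 51.5% for Endoderm SMAD2/3 with Endoderm HEB, 46.7% for ESC HEB with ESC SMAD2/3, 66.7% for ESC SMAD2/3 with ESC HEB, 28.3% for Endoderm+SB HEB with Endoderm HEB, 31.7% for Endoderm HEB with Endoderm+SB HEB and 13.0% for Endoderm+SB HEB with ESC+SB HEB. With the upper 50% of each list the genes numbered 23 in Endoderm SMAD2/3, 25 in ESC+SB HEB and 7 in ESC SMAD2/3. The promoter-proximal share of ESC SMAD2/3, which rests on 1 region of Sema6c, was 0% with the upper 50%, with the common minimum height and over the 5′ end itself, where that of ESC HEB was 10.7%. With the highest region of each gene alone, the median height was 48.3 in Endoderm+SB HEB, 71.5 in Endoderm HEB, 49.5 in ESC+SB HEB and 49.6 in ESC HEB, and the median enrichment 15.1 in Endoderm HEB, 7.90 in ESC+SB HEB and 9.40 in ESC HEB. In the equal-length and highest-region settings fewer regions enter by construction. No paired analysis was possible because each group has 1 library, and for the same reason no library could be left out. Regions under the smallest deposited height, and those over 1 kb from any gene, are outside these counts.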
